A study of Homo sapiens with 6 samples.

Results

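The HOX genes are homeobox transcription factors that lie in 4 clusters, HOXA, HOXB, HOXC and HOXD. The 32 genes described here were chosen by symbol: they are every gene of the deposited counts table named HOXA, HOXB, HOXC or HOXD followed by a number, out of 16720 named genes. HOXA held 11 of them, HOXB 9, HOXC 9 and HOXD 3, and other genes of the family were not analysed here. The family was picked with the comparison of sgRFX6 and sgControl cells in view, after HOXA13 had been seen among the largest rises, so the fold changes and adjusted p-values of that comparison describe the members and test nothing about the family.

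Within a cluster the genes are numbered by paralog group, in the order in which they lie on the chromosome. In the embryo, genes of low number are active early and towards the head, and genes of high number later and towards the tail, so that the set of HOX genes in use marks position along the body. Adult tissues and the cell lines made from them commonly keep such a set. Polycomb proteins hold HOX genes silent, trithorax and MLL proteins keep them active, retinoic acid and CDX factors switch them on, and HOX proteins bind DNA together with cofactors of the TALE class (PBX, MEIS and PKNOX).

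RNA was sequenced from Hep3B, an established line of human hepatocellular carcinoma cells, in 3 libraries labelled sgControl with a wild-type genotype and 3 libraries labelled sgRFX6 with RFX6, a winged helix transcription factor, knocked out. By the methods, guides were carried in the lentiCRISPRv2 vector, cells were selected with puromycin and clones grown from single cells were picked. The number of clones behind the libraries, and whether the libraries of a group came from separate cultures, is not stated, so p-values measure the spread between these libraries only, and effects of a clone and of the genotype cannot be told apart. The table names the control columns cas and the knockout columns by a guide sg3; the former were taken as sgControl, the only control group.

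The libraries held between 16730374 and 25070770 counts, so that 3 counts, used here as the limit of detection, stood for between 0.121 and 0.188 CPM (counts scaled to a common library size). RFX6 itself had 117, 144 and 170 counts in the sgControl libraries and 69, 59 and 77 in the sgRFX6 libraries, all sgRFX6 libraries lying lower in CPM (log2 fold change −0.82, SE 0.26, adjusted p = 0.142 by edgeR's quasi-likelihood test). The line's label was checked against markers. All 10 hepatocyte markers were detected, but in sgControl cells ALB, the gene of serum albumin, stood at 20.2 ± 10.4 CPM, AFP at 2.03 ± 0.395, APOA1 at 1.06 ± 0.239 and TTR at 0.482 ± 0.321 (SD, n = 3). APOH, at 76.1 ± 12.5 CPM, and HNF4A, a factor also used in the gut, at 151 ± 8.28 CPM, were the highest of the list. APOB (66.6 ± 8.60 CPM) and FGB (26.4 ± 6.91) also had means above that of ALB, while SERPINA1 stood at 9.14 ± 1.42 and TF at 2.17 ± 0.887. In the same cells the intestinal epithelium markers LGALS4 (571 ± 343 CPM), VIL1 (452 ± 107), CDH17 (317 ± 34.6) and KRT20 (248 ± 52.0) all stood higher than HNF4A, while CDX2 stood at 32.4 ± 22.4 CPM and GPA33 and CEACAM5 at 0.408 ± 0.396 and 0.668 ± 0.243 CPM. The other 3 intestinal markers of the list of 10, CDX1, MUC2 and FABP2, were not among the named genes of the deposited counts, so their levels are not known. The label was kept as the submitters gave it.

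Since RFX factors bind DNA, the sequences around the start sites of the members are the place where a site would first be looked for. Promoter windows of 300 bases were held by RefSeq (GRCh38.p14) for 14 of the 32 members, with 20 distinct windows. Those of HOXA13 and HOXA2, which had the largest fold changes, and of HOXA11, their neighbour with the most counts in the sgControl libraries, are printed 5′ to 3′ with every CG dinucleotide in capitals. HOXA3 had 7 windows, with 0 to 29 CG dinucleotides, and none is printed.

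HOXA13, chr7:27200042-27200341, minus strand: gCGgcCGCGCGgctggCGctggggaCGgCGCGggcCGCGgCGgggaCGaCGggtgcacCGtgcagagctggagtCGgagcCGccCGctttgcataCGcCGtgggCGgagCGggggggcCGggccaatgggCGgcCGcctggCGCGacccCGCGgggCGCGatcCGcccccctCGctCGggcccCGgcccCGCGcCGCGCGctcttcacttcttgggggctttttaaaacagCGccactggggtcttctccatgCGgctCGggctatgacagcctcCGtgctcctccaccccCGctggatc
HOXA2, chr7:27102634-27102933, minus strand: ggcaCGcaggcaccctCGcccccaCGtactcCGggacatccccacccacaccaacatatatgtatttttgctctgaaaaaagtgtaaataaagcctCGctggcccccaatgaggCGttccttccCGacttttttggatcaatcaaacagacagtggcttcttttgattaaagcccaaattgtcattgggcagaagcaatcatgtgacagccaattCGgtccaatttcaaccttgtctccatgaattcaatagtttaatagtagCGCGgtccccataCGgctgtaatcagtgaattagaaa
HOXA11, chr7:27185183-27185482, minus strand: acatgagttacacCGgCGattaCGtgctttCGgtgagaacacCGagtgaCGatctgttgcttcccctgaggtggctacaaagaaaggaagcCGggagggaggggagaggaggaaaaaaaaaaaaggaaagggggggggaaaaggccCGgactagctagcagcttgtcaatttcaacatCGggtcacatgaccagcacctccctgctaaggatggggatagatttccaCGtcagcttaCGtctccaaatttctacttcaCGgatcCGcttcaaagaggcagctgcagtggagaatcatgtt

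The HOXA13 window held 44 CG dinucleotides, the most of any member window, and 95.8% of the 34943 distinct windows of all genes held fewer. The HOXA2 window held 11 and the HOXA11 window 13, close to the median of 14 over all windows, and the median of the member windows was 23. None of the 3 printed windows holds GTTGCC, a half-site of RFX factors, the full X-box of these factors, TATAAA or TTTATTG, a core of CDX and posterior HOX factors, on either strand. Over the 20 member windows the half-site was found in 10%, against 12.2% of all windows. These were the HOXA9 window and the HOXA3 window at chr7:27122323-27122622, so a called gene held the half-site in a window that is not printed. The X-box pattern was found in 0 of 20, against 4.82% of all. TATAAA was found in 25%, against 11.6%, and TTTATTG in 15%, against 4.01%, so these shares rest on 5 and 3 windows. Those with TTTATTG were the window shared by HOXC4 and HOXC5 and the HOXA3 windows at chr7:27119546-27119845 and chr7:27150901-27151200. All motif counts are matches of letters in these windows and say nothing of binding.

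The cells used HOX genes of HOXA, HOXB and HOXC, from the anterior to the posterior groups. Of the 32 members, 19 passed the filter on low counts: 7 of HOXA, 4 of HOXB, 8 of HOXC and 0 of HOXD. Per kilobase of exon (RPKM), HOXA11, which patterns the forearm, the kidney and the uterus, had the highest level of the family in every library, at 11.96, 17.2 and 10.9 RPKM in sgControl cells and 13.4, 8.88 and 9.45 RPKM in sgRFX6 cells. Of its exon bases 31.1% are shared with the antisense RNA HOXA11-AS, so this level may hold antisense reads if strand was not used in counting. After it in sgControl cells came HOXB7 at 5.28 ± 0.276 RPKM, HOXB6 at 4.13 ± 1.61, HOXC9 at 3.62 ± 0.140 and HOXA3 at 2.61 ± 0.325 (SD, n = 3). The libraries of HOXB6 overlapped those of HOXB7 and HOXC9, so these neighbours do not differ beyond their spread, and HOXA3 lay below all of them. HOXA13 stood at 0.173 ± 0.0816 RPKM, between the 19th and the 21st place of the 32.

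In sgRFX6 cells the order was HOXA11 (10.6 ± 2.48 RPKM), HOXB7 (6.40 ± 1.04), HOXA3 (5.88 ± 0.168), HOXA13 (4.95 ± 1.70), HOXC9 (3.93 ± 0.626) and HOXB6 (3.50 ± 0.608). HOXA13 had moved to the 3rd to 6th place, and the libraries of HOXB7, HOXA3 and HOXA13 overlapped, so that their order does not hold beyond the spread. As a share of all HOX counts, HOXA13 took 0.925% ± 0.355 in sgControl and 19.4% ± 5.23 in sgRFX6 libraries. HOXA3 took 12.2% ± 0.972 and 20.1% ± 3.48, and HOXA11 took 32.8% ± 1.40 and 19.0% ± 2.16.

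**Figure D1:**
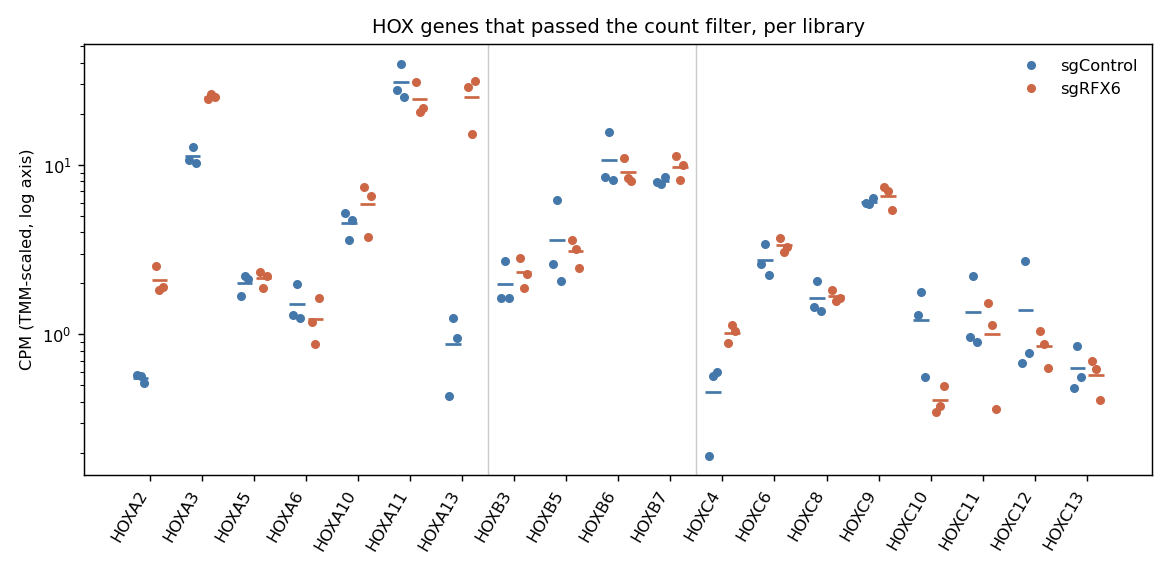
Level of each tested HOX gene in every library, in CPM on a log axis, with 1 point per library and the groups in separate colours. HOXA13, HOXA2, HOXA3 and HOXC4 have all 3 sgRFX6 points above all 3 sgControl points, and HOXC10 has them below.

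Between sgRFX6 and sgControl cells, 3 HOX genes rose in edgeR, all of them in HOXA: HOXA13, HOXA2 and HOXA3. None fell past the test. Of all 12839 genes tested, 1.92% were called higher and 1.81% lower at an adjusted p under 0.05, and the 3 of 19 members cannot be read against these shares because the family was picked on this comparison. At an unadjusted p under 0.05 there were 5 members, which added HOXC4 and HOXC10, against 2000 of all 12839 genes tested. DESeq2 and limma-voom called no member lower either. The median log2 fold change was 0.10 over the 19 members, with 11 above 0 and 8 below, and 0.02 over all genes tested. Every sgRFX6 library lay above every sgControl library in 4 members, against 12% of all genes tested, and below in 1, against 11.2%. In RNA from whole cultures, fewer cells that express a gene and less RNA of it per cell cannot be told apart.

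HOXA13 is the most posterior gene of its cluster and patterns the digits, the hindgut and the genital tract. It had 9, 31 and 22 counts in the sgControl libraries and 578, 244 and 693 in the sgRFX6 libraries. That is 0.434, 1.25 and 0.949 CPM against 28.7, 15.3 and 31.5 CPM. The lowest sgRFX6 library was far above the highest sgControl library, and the means were 0.879 ± 0.415 and 25.2 ± 8.63 CPM (SD, n = 3). The fitted difference was 28.2-fold (log2 fold change 4.82, SE 0.45, adjusted p = 0.00123, edgeR). The gene lies at chr7:27193503-27200106 on the minus strand in GRCh38. Only 1.69% of its exon bases are shared with the antisense RNA HOTTIP, whose reads could not be told apart if strand was not used in counting.

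HOXA2, which patterns the hindbrain and the middle ear, was low in every library. It had counts of 12, 14 and 12 with sgControl and of 51, 29 and 42 with sgRFX6. These were 0.578, 0.567 and 0.518 CPM and 2.53, 1.82 and 1.91 CPM. The sgControl libraries were near each other, and each sgRFX6 library lay above all of them (3.74-fold, log2 fold change 1.90, SE 0.35, adjusted p = 0.0189, edgeR). HOXA2 lies at chr7:27100354-27102811, and no exon base of it overlaps another annotated gene.

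HOXA3, which is needed for the thymus and the parathyroid glands, was the member of the anterior groups with the most RNA. It had 10.6, 12.8 and 10.2 CPM in sgControl and 24.6, 26.1 and 25.2 CPM in sgRFX6 libraries. Both groups were tight and did not overlap, with means of 11.2 ± 1.40 and 25.3 ± 0.725 CPM (SD, n = 3; 2.25-fold, log2 fold change 1.17, SE 0.21, adjusted p = 0.0179, edgeR). The annotated gene is long, chr7:27106184-27152581. Of its exon bases 15.4% are shared with antisense RNAs of the cluster and 9.24% with 2 genes on the same strand, so its counts may hold reads of these.

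The calls of HOXA2 and HOXA3 rested on all libraries more than that of HOXA13 did. Without sgControl 1, sgControl 3, sgRFX6 1 or sgRFX6 2, neither passed: the log2 fold change of HOXA2 was 1.93, 1.88, 1.74 and 1.98 (adjusted p = 0.0753, 0.0988, 0.102 and 0.0511, edgeR), and that of HOXA3 was 1.13, 1.13, 1.19 and 1.14 (adjusted p = 0.0891, 0.117, 0.0789 and 0.0603). HOXA13 passed in each of the 16 alternatives run, with log2 fold changes between 4.38 and 5.16.

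**Figure D2:**
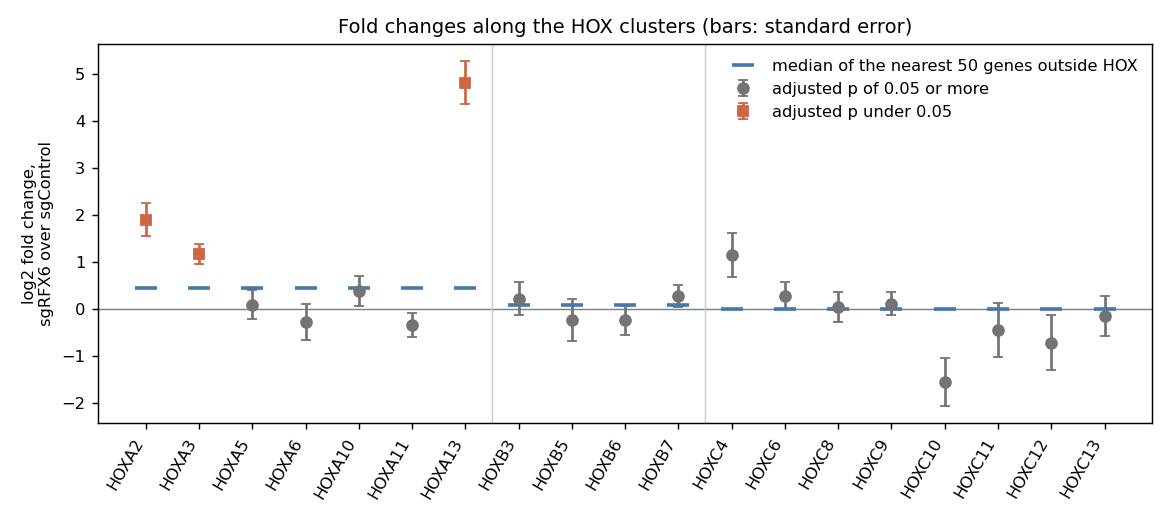
Log2 fold change of the 19 tested HOX genes, sgRFX6 over sgControl, by cluster and paralog number, with bars for the standard error. HOXA13 stands at 4.82 and HOXA2 and HOXA3 at 1.90 and 1.17, and the other genes lie between −1.55 and 1.14.

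The tested genes with paralog numbers between those of HOXA3 and HOXA13 did not pass the test. HOXA11, the nearest coding neighbour of HOXA13, had 27.6, 39.6 and 25.2 CPM in sgControl and 31.0, 20.5 and 21.8 CPM in sgRFX6 libraries. The groups overlapped and the fitted difference was below 0 (log2 fold change −0.34, SE 0.26, adjusted p = 0.621, edgeR). HOXA10, a regulator of the uterus and of blood progenitors, had 5.20, 3.60 and 4.75 CPM and 7.40, 3.77 and 6.54 CPM (log2 fold change 0.39, SE 0.32). Its sgRFX6 library 2 lay among the sgControl libraries.

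HOXA5, needed for the lung, had 1.69, 2.23 and 2.11 CPM in sgControl and 2.33, 1.88 and 2.22 CPM in sgRFX6 libraries (log2 fold change 0.10, SE 0.30). HOXA6 had 1.30, 1.98 and 1.25 CPM and 1.19, 0.879 and 1.63 CPM (log2 fold change −0.28, SE 0.38). Both overlapped between the groups, and both lie inside the annotated span of HOXA3. HOXA6 shares 39.3% of its exon bases with antisense HOXA-AS3, and HOXA5 shares none with another gene. HOXA4, HOXA7 and HOXA9 did not pass the filter. HOXA4 had counts of 2, 14 and 4 with sgControl and of 5, 2 and 10 with sgRFX6, and HOXA7 had 4, 11 and 4 and 8, 4 and 3. HOXA9 had 3, 1 and 4 and 4, 3 and 2. These 3 genes had at most 14 counts in any library, their counts overlapped between the groups, and no difference was detectable at this depth.

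The rises were thus at both ends of the tested HOXA genes. The 13 tested genes outside the cluster and within 2 Mb of it all had log2 fold changes above 0, with a median of 0.46. The median of the 50 tested genes nearest to HOXA13 was 0.44. C7orf31, near the far edge on the HOXA2 side, was the only one of the 13 called (2.05, SE 0.37, adjusted p = 0.0188, edgeR), and SKAP2, an adaptor protein gene and the nearest tested on that side, was above the sgControl libraries in every sgRFX6 library (0.87, SE 0.28, adjusted p = 0.159). EVX1, a homeobox gene just beyond HOXA13, had 1.30, 4.70 and 1.04 CPM in sgControl and 5.01, 1.76 and 2.41 CPM in sgRFX6 libraries, with overlap (0.38, SE 0.62, adjusted p = 0.861, edgeR), and limma-voom called EVX1 higher (1.72, adjusted p = 0.00770). When the median of the nearest 50 genes was taken off, HOXA13 stood at 4.38 (adjusted p = 0.00191, edgeR), HOXA2 at 1.47 (adjusted p = 0.0628) and HOXA3 at 0.73 (adjusted p = 0.125), so the calls of HOXA2 and HOXA3 were lost. The part of the region in their rise was not tested otherwise. Within 2 Mb of the other clusters the medians were 0.09 for HOXB, −0.0038 for HOXC and 0.05 for HOXD.

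**Figure D3:**
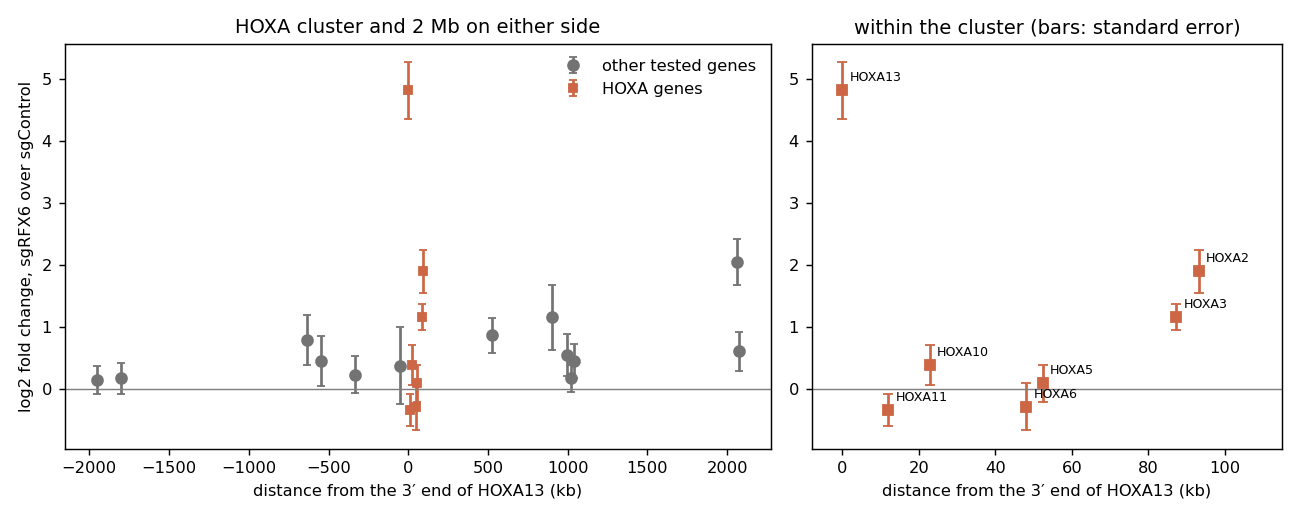
Log2 fold change with standard error of every tested gene within 2 Mb of the HOXA cluster (left) and of the 7 tested HOXA genes (right), by distance of the gene's lower coordinate from that of HOXA13 in kb, counted positive towards HOXA2. All other genes lie above 0, while HOXA11 and HOXA6, inside the cluster, lie below.

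In HOXB no gene rose or fell past the test, and the 4 tested genes overlapped between the groups. HOXB7, which is also expressed in the kidney's collecting ducts, had 7.95, 7.73 and 8.54 CPM in sgControl and 11.3, 8.10 and 9.94 CPM in sgRFX6 libraries (log2 fold change 0.28, SE 0.24). HOXB6 had 8.48, 15.6 and 8.20 CPM and 10.9, 8.42 and 7.99 CPM (−0.24, SE 0.31). Its highest value was sgControl library 2, and the other libraries lay close together.

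HOXB5, which acts in the enteric nervous system, showed the same high sgControl library 2, with 2.60, 6.19 and 2.07 CPM against 3.62, 3.20 and 2.45 CPM (log2 fold change −0.23, SE 0.44). HOXB3 had 1.64, 2.71 and 1.64 CPM and 2.83, 1.88 and 2.27 CPM (0.22, SE 0.35). HOXB8 had counts of 9, 23 and 5 with sgControl and of 6, 11 and 9 with sgRFX6, just below the filter, and HOXB9 had 2, 8 and 4 and 6, 2 and 3. HOXB4 reached at most 4 counts, in sgRFX6 library 3, and had 2 in each sgControl library. HOXB2 and HOXB13 reached at most 1 count in any library and had 0 in every sgRFX6 library. HOXB13, a gene of the prostate and the distal gut, was thus at or under the limit of detection in both groups.

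In HOXC no gene passed in edgeR, but HOXC4 and HOXC10 did not overlap between the groups, in opposite directions. HOXC4, a gene also used in lymphocytes, had 0.193, 0.567 and 0.604 CPM in sgControl and 0.894, 1.13 and 1.04 CPM in sgRFX6 libraries, from 4, 14 and 14 counts and 18, 18 and 23 counts (log2 fold change 1.14, SE 0.47, adjusted p = 0.275, edgeR). Of its exon bases 17.8% are shared with HOXC5 or HOXC6 on the same strand. HOXC10, which specifies motor neurons of the lumbar cord, had 1.30, 1.78 and 0.561 CPM and 0.348, 0.377 and 0.499 CPM, from 27, 44 and 13 counts and 7, 6 and 11 counts (−1.55, SE 0.51, adjusted p = 0.160, edgeR). HOXC10 was over the filter's 0.484 CPM in all 3 sgControl libraries and in 1 sgRFX6 library, and sgControl 3 and sgRFX6 3 were near each other.

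The other HOXC genes overlapped between the groups. HOXC9, which specifies thoracic motor neurons, had 5.97, 5.91 and 6.34 CPM in sgControl and 7.40, 6.97 and 5.40 CPM in sgRFX6 libraries (log2 fold change 0.12, SE 0.25). HOXC6 had 2.60, 3.40 and 2.24 CPM and 3.72, 3.08 and 3.27 CPM (0.29, SE 0.30). HOXC8 had 1.45, 2.06 and 1.38 CPM and 1.84, 1.57 and 1.63 CPM (0.04, SE 0.33). In edgeR each of these 3 genes differed by less than 1 standard error. Limma-voom with sample quality weights called HOXC6 higher (0.58, adjusted p = 0.0481), where it called 18.1% of all genes tested higher.

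Among the posterior HOXC genes sgControl library 2 was again the highest. HOXC11 had 0.963, 2.23 and 0.906 CPM in sgControl and 1.54, 1.13 and 0.363 CPM in sgRFX6 libraries (log2 fold change −0.45, SE 0.57). HOXC12 had 0.674, 2.71 and 0.777 CPM and 1.04, 0.879 and 0.636 CPM (−0.71, SE 0.58). HOXC13, a gene of hair and nail keratins, had 0.482, 0.850 and 0.561 CPM and 0.695, 0.628 and 0.409 CPM (−0.14, SE 0.43), with 9 to 21 counts a library. HOXC11 and HOXC13 were each over the filter's 0.484 CPM in all 3 sgControl libraries and in 2 sgRFX6 libraries. HOXC5 did not pass the filter, with counts of 3, 0 and 7 in sgControl and of 7, 4 and 6 in sgRFX6 cells.

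HOXD was nearly silent. HOXD1 had 5, 0 and 2 counts in the sgControl libraries, HOXD8 had 0, 0 and 1, and HOXD13, a regulator of the digits, had 0, 0 and 2. All 3 genes had 0 counts in every sgRFX6 library, which allows up to 0.149, 0.188 and 0.136 CPM in libraries 1, 2 and 3. HOXD1 in sgControl library 1, at 5 counts, was the only value over the limit of detection, and no fold is given.

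Summed over every HOX gene of a cluster, HOXA reached 48.1, 63.2 and 45.8 CPM in sgControl and 98.8, 71.0 and 91.8 CPM in sgRFX6 libraries, without overlap. Without HOXA13 the sums were 47.7, 62.0 and 44.9 CPM and 70.1, 55.7 and 60.3 CPM, and the groups overlapped. HOXB summed to 21.4, 33.6 and 20.9 CPM and 29.3, 22.5 and 23.4 CPM. HOXC summed to 13.8, 19.5 and 13.7 CPM and 17.8, 16.0 and 13.5 CPM. The sums of HOXB and HOXC overlapped, with means of 25.3 and 25.1 CPM and of 15.7 and 15.8 CPM.

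**Figure D4:**
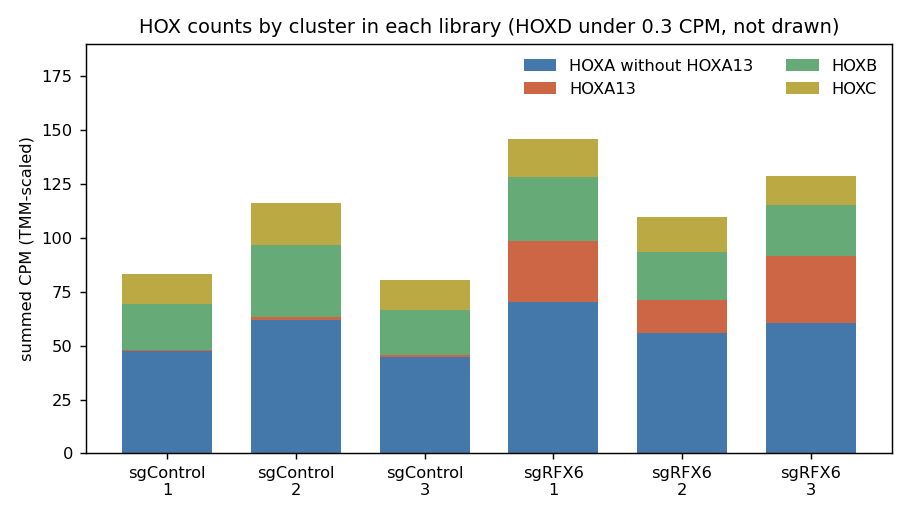
Summed CPM of the HOX genes of each cluster in every library, as 1 stacked bar per library. HOXA13 is drawn apart from the rest of HOXA, and HOXD is not drawn. The HOXA sums with HOXA13 are 45.8 to 63.2 CPM in sgControl and 71.0 to 98.8 CPM in sgRFX6 cells, and those of HOXB and HOXC overlap.

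One control library carried higher HOX levels than its group. In sgControl library 2, 16 of the 19 tested HOX genes were above their group mean in log2 CPM, with a median deviation of 0.39, against −0.17 and −0.20 in sgControl libraries 1 and 3. In sgRFX6 library 1, 15 of the 19 were above the group mean, with a median of 0.24. Over all genes tested the median deviations of these 2 libraries were −0.01 and 0.03. The deviations of all tested genes also followed GC content. The Spearman coefficients across genes were −0.56, 0.41 and 0.05 in sgControl libraries 1, 2 and 3 and 0.65, 0.72 and −0.85 in sgRFX6 libraries 1, 2 and 3. In each of sgRFX6 libraries 2 and 3, 7 of the 19 HOX genes were above the group mean, with medians of −0.10 and −0.03. The part of GC content in the HOX values was not tested beyond a correction for GC content, under which HOXA13, HOXA2 and HOXA3 stood at 4.75, 1.93 and 1.23. Without sgControl library 2 the log2 fold changes of HOXB5, HOXB6, HOXC11, HOXC12 and HOXC13 were above 0, at 0.40, 0.13, 0.10, 0.22 and 0.13, and none passed.

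**Figure D5:**
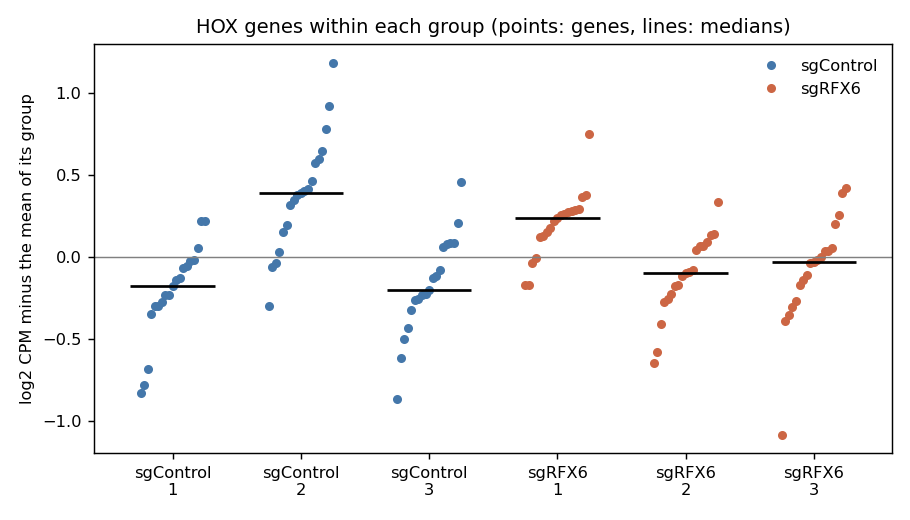
Deviation of each tested HOX gene from its group mean in log2 CPM, by library, with the median marked. In sgControl library 2 the median is 0.39 and 16 of 19 genes lie above 0.

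Of the genes that act with or on HOX genes, few passed the test. For each of these lists the edgeR shares over all genes tested were 1.92% called higher and 1.81% called lower. Among 9 tested genes of the TALE list, 0 rose and 1 fell in edgeR, with a median log2 fold change of −0.56. The list also held TGIF1, TGIF2 and PBXIP1, and none of its tested PBX, MEIS and PKNOX genes was called in edgeR without a correction. MEIS2 (−0.76, adjusted p = 0.155, edgeR) and PBX2 (−0.65, adjusted p = 0.171, edgeR) lay lower in every sgRFX6 library. Under the GC correction both were called lower. Of the 9 tested genes 4 lay lower without overlap and 1 higher, against 11.2% and 12% of all genes tested. TGIF2, a TALE repressor of TGF-beta and retinoid responses, had 26.5, 30.7 and 28.7 CPM in sgControl and 14.99, 13.4 and 10.9 CPM in sgRFX6 libraries, without overlap (−1.13, SE 0.22, adjusted p = 0.0246, edgeR). TGIF2 passed without sgRFX6 3 (adjusted p = 0.0230) and missed the threshold when any other library was left out (adjusted p = 0.0634 to 0.119). PBXIP1, which binds PBX proteins, stood at −0.87 (adjusted p = 0.248). TGIF1 stood at 0.34 (adjusted p = 0.341) and MEIS3 at 0.16 (adjusted p = 0.909), the largest values of the list. Limma-voom called 2 of the list higher, TGIF1 (0.41, adjusted p = 0.00705) and MEIS3 (0.91, adjusted p = 0.00290). It called 3 lower, TGIF2, MEIS2 and PBX2, where it called 18.1% of all genes tested higher and 13% lower. PBXIP1 stood at −0.20 there.

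Among 11 tested genes of the CDX factors and of retinoic acid handling, 0 rose and 1 fell in edgeR, with a median of −0.08. STRA6, the receptor that takes up retinol from its plasma carrier, had 34.9, 114 and 34.6 CPM in sgControl and 13.0, 7.16 and 6.67 CPM in sgRFX6 libraries (log2 fold change −2.77, SE 0.52, adjusted p = 0.0213, edgeR). All sgRFX6 libraries were lower, and sgControl library 2 was again the highest. The call of STRA6 was lost without sgRFX6 2 (−2.65, adjusted p = 0.0712) or sgRFX6 3 (−2.60, adjusted p = 0.0544), and without sgControl 2 the value was −1.96 (adjusted p = 0.0298). RARB, a retinoic acid receptor, stood at −0.68 (adjusted p = 0.265), CYP26B1, which degrades retinoic acid, at 0.38 (adjusted p = 0.772) and CRABP2, which carries it to the nucleus, at 0.32 (adjusted p = 0.818). CDX2, the intestinal homeobox factor, had 19.7, 58.3 and 19.4 CPM and 32.4, 22.3 and 17.3 CPM (−0.43, SE 0.45, adjusted p = 0.740), with overlap. Limma-voom called 2 of the list higher, CRABP2 (1.15, adjusted p = 0.00118) and CYP26B1 (0.93, adjusted p = 0.0211), and 2 lower, STRA6 and RARB, and gave CDX2 a value of the other sign (0.51, adjusted p = 0.0959).

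None of 34 Polycomb genes and none of 24 trithorax and MLL genes tested passed in edgeR. At an unadjusted p under 0.05 there were 4 and 0, against 2000 of all 12839 genes tested. DESeq2 called 1 Polycomb gene lower and 0 of the trithorax list, against 3.82% of all genes tested higher and 3.15% lower. Limma-voom called 2 Polycomb genes higher and 8 lower, and 1 trithorax gene higher and 3 lower, against its shares of 18.1% and 13% over all genes. The medians were −0.11 and 0.02. EED, a core subunit of Polycomb complex PRC2, stood at 0.63 (adjusted p = 0.226), PCGF5 at 0.35, PHC1 of PRC1 at −0.81 (adjusted p = 0.113) and PCGF2 at −0.79 (adjusted p = 0.149). KMT2A, the MLL methyltransferase itself, stood at 0.37 (adjusted p = 0.368), KMT2C at 0.36, DOT1L at −0.43 and MLLT10 at −0.37.

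Markers of several cell types also moved between the groups, and their part in the HOX results was not tested. In edgeR 1.92% of all genes tested were called higher and 1.81% lower. Of 10 hepatocyte markers 1 rose (AFP, alpha-fetoprotein, log2 fold change 2.82, adjusted p = 0.00254) and 1 fell (FGB, the fibrinogen beta chain, −2.45, adjusted p = 0.00417). TF stood at 1.05 and APOB at −1.29, and the list summed to 331 to 395 CPM in sgControl and 261 to 283 CPM in sgRFX6 libraries. Of 7 intestinal epithelium markers 3 rose, namely KRT20 (1.67, adjusted p = 0.00430), GPA33 (4.11, adjusted p = 0.0251) and CEACAM5 (4.48, adjusted p = 0.00107). GPA33 and CEACAM5 were known to be higher in sgRFX6 cells when the list was written, so this count cannot be read against the share over all genes. VIL1 stood at −0.59 and CDX2 at −0.43, and the sums of 1270 to 2248 and 1989 to 2466 CPM overlapped. Of 7 tested mesenchymal markers 4 fell: COL1A1, COL1A2, COL3A1 and PDGFRA, while LUM stood at 0.63 and DCN at −0.44. COL3A1, a fibrillar collagen of connective tissue, had 23.0, 27.5 and 26.5 CPM in sgControl libraries and was at or under the limit of detection in every sgRFX6 library, at least 163-fold lower, while the list summed to 65.1 to 77.4 and 31.3 to 67.5 CPM. Of the kidney epithelium markers, LHX1 rose (1.89, adjusted p = 0.0254) and PAX8, the other one tested, stood at 0.46 (adjusted p = 0.499), with sums of 4.88 to 6.31 and 10.3 to 10.7 CPM. PAX2, a factor of the developing nephron, had at most 2 counts in any library, and THY1, PDGFRA and PDGFRB of the mesenchymal list had at most 3 in any sgRFX6 library. In the sgControl libraries THY1 had only 3, 5 and 4 counts, PDGFRB 10, 15 and 5 and PDGFRA 36, 33 and 69. THY1 and PDGFRB did not pass the filter.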

How the data were processed

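RNA of Hep3B cells was sequenced in 3 sgControl and 3 sgRFX6 libraries. The authors deposited raw counts per gene in 1 table. The submitters' processing notes name the builds GRCh38 and hg38, and the aligner, the counting program, the annotation and the use of strand are not given in the sources used here. A row without a gene name, with 7.17e-05% to 9.17e-05% of a library's counts, was left out.

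Counts were filtered with filterByExpr (minimum count 10, minimum total 15), scaled by TMM and compared with edgeR 4.0.16 (R 4.3.3), by the quasi-likelihood test over all 6 libraries without covariates. P-values were adjusted over all 12839 genes by the Benjamini-Hochberg method (threshold 0.05). CPM are TMM-scaled, and RPKM divide them by the union exon length of GENCODE release 29 (GRCh38), to which 15422 of 16721 row names matched directly and 268 by another symbol. The limit of detection was 3 counts, which covers counting error only, since PCR reads are not independent molecules. Promoter windows came from RefSeq. The fit was tested on simulated data.

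The members and lists were chosen with earlier results of these data known. Named were all HOX genes, RFX6 and, of the other lists, the called genes and the 2 largest and 2 smallest log2 fold changes. The results of some genes are left out of the text. For markers and the TALE list, other genes were named after their values were seen. The alternatives were DESeq2 1.42.0, limma-voom (limma 3.58.1) with quality weights per library, RLE or no scaling factors, a robust dispersion, no filter or a stricter one, the replicate block and each library left out. Corrections were for GC content (loess span 0.3, prior count 2) and for the median of the nearest 50 genes.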

Additional observations from a re-analysis of the deposited data

How the results depend on the processing

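Over 16 alternatives, 271 of 300 comparisons of a HOX gene kept their direction and their side of the threshold, 18 reversed, 10 lost their call and 1 gained it. The 3 HOX calls became 1 under the regional correction and 1 to 3 with a library left out, being 1 without sgControl 1, sgControl 3, sgRFX6 1 or sgRFX6 2. HOXA13 was the call left under the regional correction, and HOXA13 had an adjusted p between 9.87e-27 and 0.0116 throughout. Limma-voom added HOXC6 (0.58, adjusted p = 0.0481); it gave sgControl library 2 a weight of 0.292 and sgRFX6 library 3 one of 0.168, against 1.08 to 3.80 for the others. No reversed gene was called. Under the regional correction HOXA10 stood at −0.048 and HOXA5 at −0.34. Under limma-voom HOXA11 stood at 0.091, HOXB5 at 0.58, HOXB6 at 0.26, HOXC11 at 0.50, HOXC12 at 0.29 and HOXC13 at 0.27. With a library left out, HOXA5 ranged from −0.015 to 0.17, HOXB5 from −0.49 to 0.40, HOXB6 from −0.39 to 0.13, HOXC8 from −0.040 to 0.25, HOXC11 from −0.91 to 0.10, HOXC12 from −1.04 to 0.22 and HOXC13 from −0.31 to 0.13. The cause was not tested. Of the cofactor and regulator lists, limma-voom called 8 genes higher, against 0 in edgeR, and 16 lower, against 2. Under the GC correction 7 were lower, and with a library left out 0 to 1, with 0 without sgRFX6 2. STRA6 was not called without sgRFX6 2 or sgRFX6 3, and TGIF2 was called only without sgRFX6 3 among these. Replicate numbers did not pair the libraries: deviations of same-numbered libraries correlated at −0.41, 0.17 and −0.09. With the number as a block there were 3 HOX calls and 648 calls over all genes, against 480. Over all genes DESeq2 made 895 calls, limma-voom 3998 and the GC correction 1379, and leaving out a library gave 212 to 718. The stricter filter left HOXC4, HOXC10, HOXC12 and HOXC13 untested. Depth limits what can be said of the 13 untested HOX genes.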
